A study of Homo sapiens with 12 samples.

Results

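TFRC, FTH1, HMOX1 and NQO1 are 4 human genes of iron uptake, iron storage, haem breakdown and quinone reduction. They were picked by name from the 4988 genes of a deposited mRNA table, with their difference between treated and control tumours in view, so that difference is described here and not tested. RNA came from Hep3B tumours, which the labels call xenografts; Hep3B is an established line of human hepatocellular carcinoma. The control group and the group treated with bufotalin, a cardiac glycoside of toad venom, had 3 total RNA and 3 small RNA libraries each. The sources used here give no dose, duration, host strain or age. Nor do they tie each replicate to its own animal, so p-values below measure only the spread between these libraries, which may be technical.

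Cells take up iron when transferrin, the iron carrier of blood, binds the transferrin receptor encoded by TFRC and is carried into endosomes. FTH1 encodes the ferritin heavy chain, which oxidizes iron and stores it in the ferritin shell. When iron is scarce, iron regulatory proteins bind hairpins in both messages, which stabilizes the TFRC mRNA and blocks translation of the FTH1 mRNA. HMOX1 encodes haem oxygenase, which opens the haem ring and frees its iron, and NQO1 encodes a quinone reductase of the cytosol. HMOX1, NQO1 and FTH1 are textbook targets of NRF2, the transcription factor of the oxidative stress response, and BACH1 represses HMOX1. Hepatocytes are a main site of iron storage, and many tumour lines carry high levels of the transferrin receptor.

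The TFRC promoter is shown because it belongs to the gene with the largest difference of the 4. The 250 bases before the RefSeq start lie at chr3:196082091-196082340 on the minus strand of GRCh38.p14; the first coordinates of this window overlap the end of the gene as the deposited table places it. Capitals mark ACGTG, the core letters of hypoxia response elements, and TATAAA, the TATA box letters.
TFRC promoter: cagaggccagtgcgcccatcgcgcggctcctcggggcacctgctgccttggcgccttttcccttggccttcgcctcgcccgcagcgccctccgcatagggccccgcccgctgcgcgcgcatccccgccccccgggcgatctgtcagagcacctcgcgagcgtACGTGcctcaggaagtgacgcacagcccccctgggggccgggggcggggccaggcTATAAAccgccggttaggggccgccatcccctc
ACGTG began 88 bases before the start and TATAAA 33 bases before it. Searched on both strands in windows of the same length, ACGTG was found in 18.5% of 35116 RefSeq promoters and TATAAA in 10.7%. TGACNNNGC, the core of antioxidant response elements, was in 10.9% of promoters and had no match in this window of TFRC or of NQO1. GCGTG, the core of the aryl hydrocarbon response element (32.2% of promoters), CACGTG (6.34%; it contains ACGTG) and TGACGTCA (1.65%) had no match in either window. NQO1 had no match to ACGTG or TATAAA either. A match, or its absence, describes letters in the window only, and bases further upstream were not searched. The NQO1 window lies at chr16:69726561-69726810 on the minus strand. The deposited table places the end of NQO1 at 69726668, so part of this window lies inside the gene as tabled. Promoter sequences matched 2 of the 4 genes; FTH1 and HMOX1 had no entry.

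TFRC, the uptake receptor (chromosome 3, 196027183 to 196082096 on GRCh38), was at 74.2, 96.7 and 111 FPKM in control replicates 1, 2 and 3. It was at 533, 573 and 525 FPKM in bufotalin replicates 1, 2 and 3. FPKM are fragment numbers scaled by transcript length and library size. The groups did not overlap, and the lowest treated library was 4.72-fold above the highest control. The means were 94.0 ± 18.7 and 544 ± 26 FPKM (SD, n = 3 each), a 5.78-fold difference, or 2.54 on the log2(FPKM + 1) scale (SE 0.16). By level, TFRC moved from between place 135 and place 219 of the 4988 listed genes in control libraries to between place 19 and place 24 in treated libraries.

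FTH1, the ferritin heavy chain (chromosome 11, 61959718 to 61967634), was at 814, 879 and 526 FPKM in control replicates 1, 2 and 3, and at 1445, 1497 and 1417 FPKM in treated libraries. Control replicate 3 was the lowest, and no treated library reached down to a control. The means were 740 ± 188 and 1453 ± 41.0 FPKM, a 1.96-fold difference (log2 1.01, SE 0.20), which was 0.78 without control replicate 3. The same control replicate had 13.4 FPKM of the haemoglobin gene HBB, against 0.367 to 0.552 FPKM in the other 5 libraries; the part of this in the FTH1 value was not tested. FTH1 was near the top of the table in level already in control tumours, at places 6 to 10 in control and 2 to 3 in treated libraries. Processed FTH1 pseudogenes are nearly identical to the mRNA, so reads may be shared with them and the level is uncertain to that extent.

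HMOX1, the haem oxygenase (chromosome 22, 35380361 to 35394207), was the least abundant of the 4. It was at 6.42, 6.82 and 5.61 FPKM in control replicates and at 14.7, 14.2 and 16.4 FPKM in treated ones. Each treated library was at least 2.08-fold above each control. The means were 6.29 ± 0.617 and 15.1 ± 1.17 FPKM, a 2.40-fold difference (log2 1.14, SE 0.11).

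NQO1, the quinone reductase (chromosome 16, 69706996 to 69726668), went the other way. It was at 160.2, 193 and 199.9 FPKM in control replicates and at 102, 112 and 118 FPKM in treated ones. The lowest control was 1.36-fold above the highest treated library. The means were 184 ± 21.2 and 110.5 ± 8.10 FPKM, or 1.67-fold lower in treated tumours (log2 -0.73, SE 0.13). In tumour tissue, a lower level can come from fewer cells of a type or from less RNA per cell, and these cannot be told apart.

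**Figure D1:**
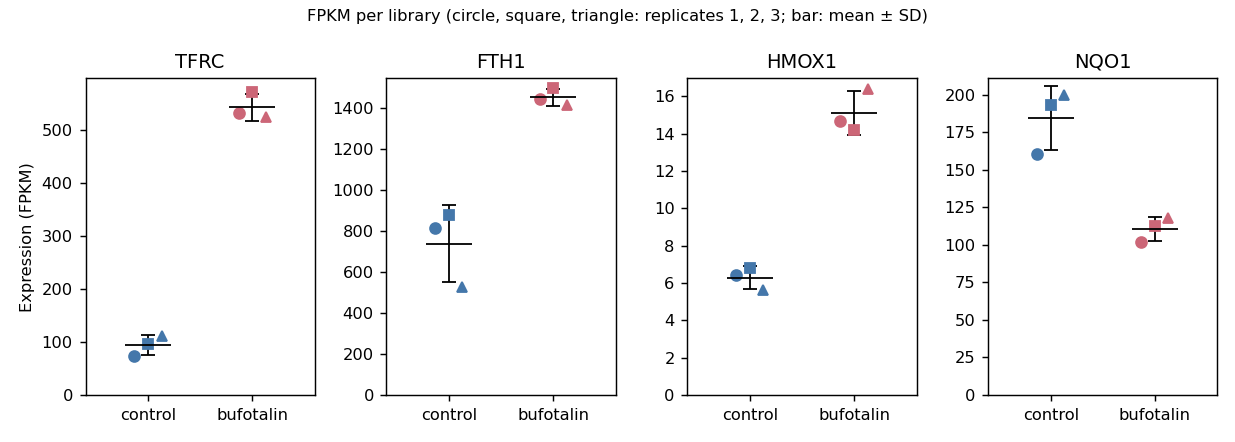
FPKM of TFRC, FTH1, HMOX1 and NQO1 in each of the 3 control and 3 bufotalin libraries; points are libraries, with marker shapes for the replicate number, and bars are means with SD (n = 3). TFRC lies at 525 to 573 FPKM in treated and at 74.2 to 111 FPKM in control libraries, NQO1 is lower in treated libraries, and FTH1 of control replicate 3 lies below the other controls.

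Set against the rest of the table, the 4 genes sat in different places. limma called 3981 of 4273 tested genes at a Benjamini-Hochberg adjusted p under 0.05, which is 93.2%; 44.3% were called higher and 48.8% lower. The authors chose the table's genes on these same libraries, so being called says little about a gene in it, and no call is given for the 4. Among the 1894 genes called higher, 7 had a larger log2 fold change than TFRC, 205 a larger one than HMOX1 and 301 a larger one than FTH1. Among the 2087 genes called lower, 1837 had a larger fall than NQO1, which puts it among the small falls of the table. The groups also did not overlap for 92.5% of the tested genes.

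**Figure D2:**
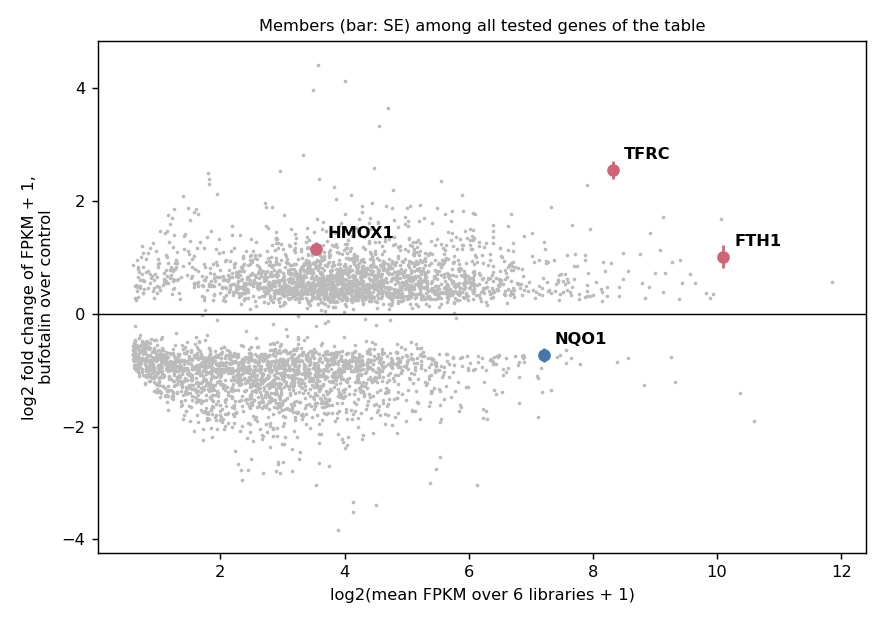
Log2 fold change of FPKM + 1, bufotalin over control (vertical axis), against log2 of the mean FPKM over 6 libraries + 1 (horizontal axis); grey points are the 4273 tested genes and coloured points the 4 genes, with SE. TFRC, at 2.54, lies above nearly all genes of its level, and NQO1, at -0.73, lies at the upper edge of the genes that were lower.

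Ratios within a library do not depend on how libraries were scaled against each other. The TFRC to FTH1 ratio was 0.0911, 0.11 and 0.212 in control replicates 1, 2 and 3 and 0.369, 0.383 and 0.371 in treated ones, with no overlap. TFRC was thus higher in treated tumours also relative to FTH1, by 2.72-fold on the means (0.138 ± 0.0648 and 0.374 ± 0.00772). The ratio of HMOX1 to NQO1 was 0.0401, 0.0353 and 0.0281 in control and 0.144, 0.126 and 0.140 in treated libraries, a 3.97-fold difference between genes that share NRF2 as a regulator. TFRC to NQO1 differed most, at 0.507 ± 0.0468 in control and 4.94 ± 0.415 in treated libraries. FTH1 to HMOX1 was the one pair whose groups overlapped, at 93.7 to 129 in control and 86.3 to 106 in treated libraries.

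**Figure D3:**
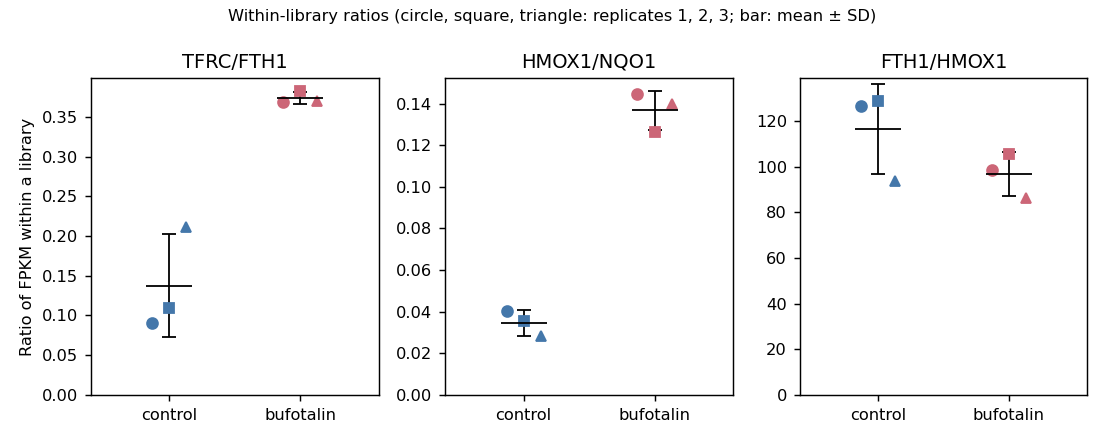
Ratio of FPKM between 2 genes within each library, for TFRC/FTH1, HMOX1/NQO1 and FTH1/HMOX1; points are libraries, with marker shapes for the replicate number, and bars are means with SD (n = 3 per group). The first and second ratios are higher in all 3 treated libraries, and FTH1/HMOX1 overlaps between the groups.

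Genes most like each of the 4 were found by the Euclidean distance between log2(FPKM + 1) values centred on the gene's mean over the 6 libraries, among the 4021 other genes whose mean reached 1 FPKM. Nearest to TFRC were PSG9, a pregnancy-specific glycoprotein gene (distance 0.37), the matricellular gene CCN3 (0.45) and GPNMB, a transmembrane glycoprotein gene (0.63). PSG9 was at 0, 0.0442 and 0.127 FPKM in control replicates 1, 2 and 3 and averaged 4.93 ± 0.356 FPKM after bufotalin. Adding 1 FPKM shrinks the differences of such low genes, so nearness here need not mean a like fold in FPKM. CCN3 averaged 2.87 ± 0.106 FPKM in control libraries and 19.1 ± 0.762 FPKM after bufotalin, and GPNMB 1.25 ± 0.0677 and 12.2 ± 2.69 FPKM. Nearest to FTH1 were CLTB, a clathrin light chain gene (0.14), MRPL32 (0.15) and RTN4RL2 (0.18), and each was, like FTH1, lowest in control replicate 3. CLTB was at 38.2, 37.3 and 23.4 FPKM in control and at 64.5, 64.1 and 59.9 FPKM in treated libraries. Nearest to HMOX1 were CCDC86 (0.155), RYR2 (0.17) and PXDC1 (0.19), and nearest to NQO1 were NOL4L (0.07), ENDOD1 (0.12) and PDE3B (0.12). With 6 libraries in 2 groups a high correlation is common: 196 genes had a Pearson r over 0.95 with FTH1 and 656 with TFRC.

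Around the 4 genes, 71 other genes from 11 lists of iron, haem and redox handling (196 genes listed) were in the table, and 69 had a mean of at least 0.5 FPKM and were tested. Of these, 28 rose and 37 fell by limma (adjusted p under 0.05), or 94.2% against 93.2% of all tested genes, and their median log2 fold change was -0.67 against 0.13. The lists hold the authors' selection and were chosen with earlier results of these data known, so their counts are not independent evidence.

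Of 6 tested iron uptake genes, 4 fell and 2 rose, against 48.8% called lower and 44.3% called higher among all tested genes. So few genes do not allow these shares to be compared. SCARA5, a scavenger receptor that binds ferritin, fell from 22.3 ± 2.60 to 2.63 ± 0.751 FPKM (log2 -2.70, SE 0.16, limma adjusted p 1.7e-06). TFR2, the second transferrin receptor, known for iron sensing in hepatocytes, fell from 3.22 ± 0.235 to 1.07 ± 0.129 FPKM (log2 -1.03, but -0.30 under quantile normalization, still called). STEAP3, an endosomal ferric reductase, fell from 11.7 ± 1.88 to 5.34 ± 0.180 FPKM. LCN2, a siderophore-binding lipocalin, fell by 0.63 on the log2 scale, a call lost under quantile normalization, where its log2 fold change was 5.1e-05. SLC39A14, an importer of zinc and of iron not bound to transferrin, rose from 48.6 ± 21.8 to 117 ± 10.05 FPKM, with controls at 25.6, 51.2 and 68.97 FPKM and treated libraries at 106, 125 and 121 FPKM. MCOLN1, a lysosomal cation channel that can release iron, rose from 4.29 ± 0.232 to 12.4 ± 1.12 FPKM. The seventh listed uptake gene in the table, transferrin itself (TF), was listed at 0 in all controls and at a mean of 0.0149 FPKM in treated libraries and was not tested.

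The genes around ferritin, iron export and iron sensing were few. BMP2 and BMP6, growth factors known to induce the iron hormone hepcidin, both rose, BMP2 from 37.4 ± 3.67 to 94.1 ± 6.18 FPKM and BMP6 from 15.4 ± 2.18 to 19.7 ± 0.230 FPKM. The BMP6 call (limma adjusted p 0.0222) was lost without control replicate 2 (0.0992) or bufotalin replicate 3 (0.0507). ACO1, which encodes iron regulatory protein 1, one of the proteins that bind the TFRC and FTH1 messages, was at 8.96, 9.96 and 11.1 FPKM in control and at 3.22, 2.96 and 3.14 FPKM in treated libraries. It fell by 1.42 on the log2 scale (SE 0.11, limma adjusted p 5.24e-06), and its groups did not overlap. Of 18 genes listed for storage and export 2 were in the table, and of 3 listed for sensing 1 was. The others were not in it and could not be tested.

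Of 12 listed haem synthesis genes, 4 were in the table and tested. All 4 fell, where 48.8% of all tested genes did, but with only 4 genes these shares cannot be compared. UROS fell from 16.1 ± 2.38 to 5.29 ± 0.115 FPKM and PPOX from 11.7 ± 1.79 to 4.44 ± 0.522 FPKM. ALAS1, the rate-limiting enzyme of the liver, fell from 39.3 ± 1.28 to 22.8 ± 0.981 FPKM, and the porphyrin transporter gene ABCB6 from 12.7 ± 1.03 to 7.61 ± 0.745 FPKM. Downstream of haem oxygenase, BLVRA, which turns biliverdin into bilirubin, was at 27.2, 29.9 and 21.7 FPKM in control and at 8.64, 6.48 and 5.74 FPKM in treated libraries (log2 -1.78, SE 0.16). It thus fell while HMOX1 was higher. SLC48A1, a haem transporter, fell from 11.1 ± 0.382 to 3.99 ± 0.153 FPKM, and PGRMC1, a haem-binding membrane protein gene, rose from 31.3 ± 1.43 to 58.99 ± 2.95 FPKM. All of these calls were kept in each of the 13 other settings.

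Among mitochondrial iron and iron-sulfur genes 3 fell, 2 rose and 2 were not called, against 48.8% and 44.3% called lower and higher among all tested genes. Of the 2, GFER (0.28) was called under quantile normalization (0.54), with equal medians (0.45) and without control replicate 3 (0.37), and GLRX3 (-0.07) in no setting. FDXR, the reductase that supplies electrons to ferredoxins, fell from 8.85 ± 0.455 to 2.17 ± 0.479 FPKM, BOLA3 from 18.5 ± 4.37 to 5.72 ± 1.40 FPKM and NUBPL, an assembly factor of respiratory complex I, from 4.29 ± 0.435 to 1.63 ± 0.108 FPKM (log2 -1.003, but -0.33 under quantile normalization, still called). CISD2, an iron-sulfur protein gene of the endoplasmic reticulum, rose from 4.82 ± 0.980 to 11.6 ± 3.80 FPKM, and ISCA1 rose by 0.49 on the log2 scale, a call lost under quantile normalization (0.26).

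Genes of the NRF2 pathway were listed either as regulators or as targets. The lists mostly differed in direction, within a table that holds hardly any small falls. This division was set by the lists and was not tested. All 7 listed regulators in the table rose, against 44.3% of all tested genes. The small MAF genes, whose proteins pair with NRF2 or BACH1 on DNA, were MAFF, from 4.70 ± 0.180 to 22.4 ± 1.96 FPKM (log2 2.03, SE 0.11), MAFG, from 10.5 ± 0.938 to 34.1 ± 2.35 FPKM (1.62, SE 0.11), and MAFK, from 50.5 ± 3.74 to 83.5 ± 3.76 FPKM. NFE2L2, which encodes NRF2, was at 38.9, 46.7 and 40.5 FPKM in control and at 63.8, 66.1 and 72.7 FPKM in treated libraries (log2 0.67, SE 0.12). BACH1, the repressor of HMOX1, rose by 0.48, and SQSTM1, an autophagy receptor that binds KEAP1, rose from 184 ± 18.8 to 301 ± 28.8 FPKM. The call of NFE2L1 (0.47, limma adjusted p 0.0436) was lost in 6 of 13 other settings, among them leaving out control replicate 2 (0.23) or any one bufotalin library.

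Of 34 listed NRF2 targets, not counting HMOX1, NQO1 and FTH1, 14 were in the table and tested. ABCC1 (0.23) was not called, though it was with equal medians (0.40) and without control replicate 3 (0.29). Of the 14, 10 fell and 3 rose, and 48.8% of all tested genes were called lower. NQO1 was on the side of the larger number and HMOX1 and FTH1 were not. GSTA4, a glutathione transferase gene, fell from 12.6 ± 1.27 to 0.924 ± 0.271 FPKM (log2 -2.83, SE 0.14), and the pirin gene PIR from 57.4 ± 6.58 to 15.0 ± 2.03 FPKM. The NADPH-forming enzyme genes ME1 and IDH1 were also among the 10, ME1 from 34.7 ± 1.45 to 10.01 ± 1.35 FPKM and IDH1 from 88.4 ± 12.4 to 27.4 ± 0.511 FPKM. TRIM16, which has near-identical copies, fell from 27.9 ± 12.7 to 9.39 ± 1.53 FPKM. The 3 that rose were OSGIN1 (0.40), TXNRD1 (0.69) and SLC7A11 (0.61), and the groups of the last 2 overlapped. The call of TXNRD1 was lost without control replicate 1 (0.52) or 2 (0.56), without bufotalin replicate 2 (0.57) and under quantile normalization (0.39), and that of SLC7A11 when control replicate 1 (0.41), control replicate 3 (0.68), bufotalin replicate 2 (0.49) or bufotalin replicate 3 (0.48) was left out.

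**Figure D4:**
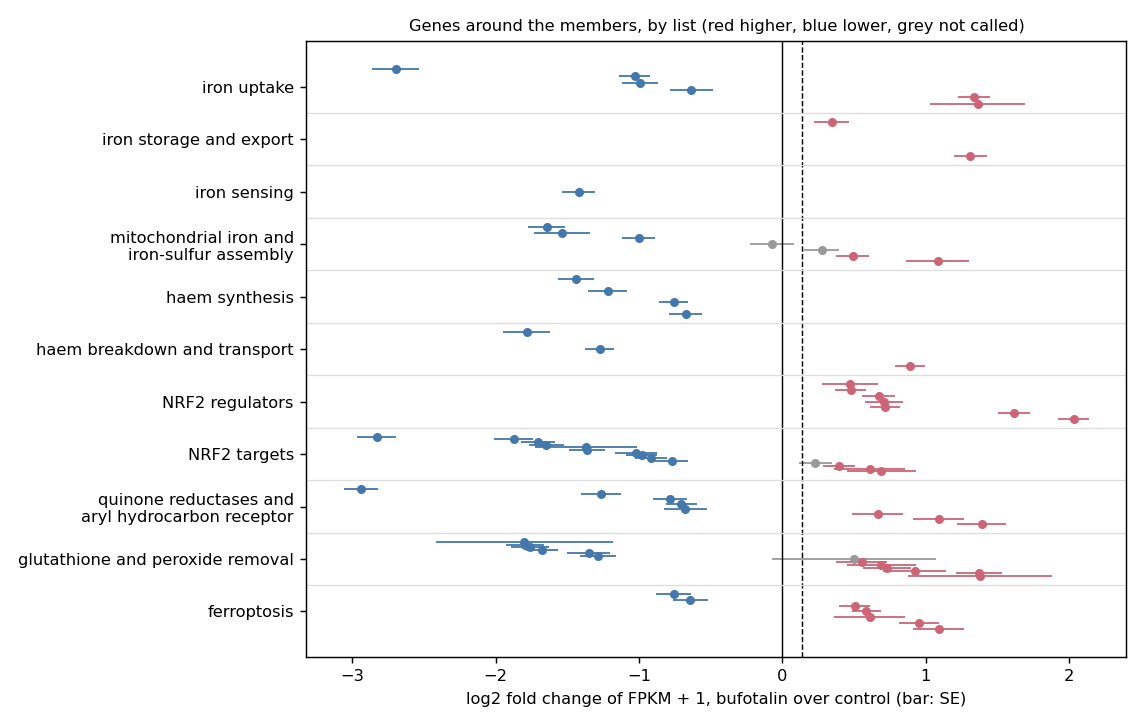
Log2 fold change of FPKM + 1 (bufotalin over control, with SE) of the 69 tested genes in 11 lists around the 4 genes; genes in several lists are drawn in each, and the dashed line is the median of all tested genes, 0.13. All 7 tested NRF2 regulators and 3 of 14 tested NRF2 targets are called higher, and all 4 tested haem synthesis genes are called lower.

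NQO1 also belongs to the genes induced by the aryl hydrocarbon receptor, a sensor of dioxins and other planar compounds. In this list with the quinone reductases 5 of 8 tested genes fell and 3 rose, against 48.8% and 44.3% of all tested genes. The list is too short for these shares to be compared. ALDH3A1, an aldehyde dehydrogenase gene of this set, was at 7.88, 8.90 and 7.32 FPKM in control and at 0.194, 0.0759 and 0.259 FPKM in treated libraries (log2 -2.94, SE 0.12). CYP1A1, the classic induced gene of the receptor, rose from 1.49 ± 0.243 to 5.61 ± 1.42 FPKM, the opposite direction to NQO1. CYP1B1 fell by 0.79 on the log2 scale, a call lost under quantile normalization (-0.07). AHR, the gene of the receptor itself, rose from 10.2 ± 2.18 to 16.8 ± 3.08 FPKM (log2 0.67, SE 0.18). ARNT, the partner of the receptor, fell from 19.5 ± 0.685 to 11.6 ± 1.02 FPKM. The reductase genes CYB5R3 and CYB5R1 went apart, from 12.5 ± 1.67 to 4.65 ± 0.786 FPKM and from 7.27 ± 2.33 to 16.2 ± 0.377 FPKM. NQO2, the paralogue of NQO1, fell from 24.96 ± 4.22 to 15.2 ± 2.14 FPKM (log2 -0.68, SE 0.15).

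In the glutathione and peroxide list, 6 of 13 tested genes rose, 6 fell and GPX1 was not called, close to the 44.3% and 48.8% of all tested genes. CAT, the catalase, fell from 35.7 ± 2.63 to 9.64 ± 1.46 FPKM, MSRB2, a methionine sulfoxide reductase gene, from 5.74 ± 0.783 to 0.992 ± 0.229 FPKM, and OPLAH, of glutathione turnover, from 4.18 ± 0.474 to 0.615 ± 0.0268 FPKM. TXNRD2, the mitochondrial thioredoxin reductase, rose from 35.7 ± 4.25 to 94.8 ± 18.2 FPKM. GGT1, which has near-identical copies (log2 -1.80), and GLRX2 (1.38) passed, but the calls were lost in 5 and 4 of 13 other settings, GGT1 under quantile normalization (-1.52) and when control replicate 1, control replicate 3, bufotalin replicate 1 or bufotalin replicate 2 was left out (-2.03 to -1.34) and GLRX2 under quantile normalization (1.48) and without any one bufotalin library (1.33 to 1.41); without control replicate 3 GLRX2 had 0.80 and was called. Of 7 tested ferroptosis genes, which bear on death by lipid peroxidation, 5 rose and 2 fell, against 44.3% and 48.8% of all tested genes. SLC3A2, a subunit of the cystine importer, was at 141, 153 and 183 FPKM in control and at 285, 343 and 296 FPKM in treated libraries. ACSL3, of fatty acid activation, rose from 40.8 ± 1.27 to 61.8 ± 0.723 FPKM, and the mitochondrial channel genes VDAC2 and VDAC3 fell by 0.64 and 0.76 on the log2 scale.

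The deposited lncRNA table held no transcript of the 4 genes, and 4 transcripts of genes in the lists. limma on log2(FPKM + 0.1) called all 4, against 73.3% of the transcripts tested. GSTP1-203, from the locus of a glutathione transferase, rose from 1.45 ± 0.270 to 26.7 ± 5.38 FPKM, and GPX8-205 from 0.512 ± 0.257 to 6.19 ± 3.16 FPKM. SLC48A1-203 was at 0.834, 0.867 and 0.759 FPKM in control and HFE-213, from the locus of the haemochromatosis gene HFE, at 0.149, 0.181 and 0.415 FPKM, and both were listed at 0 in all 3 treated libraries. Reads of such transcripts may be shared with the coding transcripts of the same gene.

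The small RNA libraries gave a readout that did not enter the choice of the 4 genes. The list of miRNAs, though, was drawn up with earlier results of these data known, so its counts are not independent evidence. Of 14 miRNAs reported in the literature to act on TFRC, FTH1, HMOX1, BACH1 or other iron genes, 13 were in the count table and 11 passed the filter on low counts. The sequences of those reported for TFRC, the uptake gene, and FTH1, the storage gene, are shown. Mature sequences are from RefSeq (GRCh38.p14), and capitals mark the seed, bases 2 to 8.
miR-210-3p: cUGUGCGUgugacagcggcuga
miR-148a-3p: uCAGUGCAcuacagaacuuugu
miR-152-3p: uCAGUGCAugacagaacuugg
miR-22-3p: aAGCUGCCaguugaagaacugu
miR-200b-3p: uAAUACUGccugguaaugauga
miR-148a-3p and miR-152-3p share the seed CAGUGCA; the other 3 have seeds of their own. miR-320a-3p, also reported for TFRC, is given by value only.

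miR-210-3p, a hypoxia-induced miRNA reported to act on TFRC and ISCU, was the 1 of 11 called by edgeR's quasi-likelihood test, against 5.66% of the 477 miRNAs tested. It was at 123, 105 and 41.3 CPM (counts scaled to the same sum in every library) in control replicates 1, 2 and 3 and at 25.1, 26.4 and 22.1 CPM in treated ones. The groups did not overlap, as for 27.3% of the tested miRNAs, and control replicate 3 was nearest to the treated libraries. It fell by 1.66 on the log2 scale (SE 0.37, edgeR adjusted p 0.0242), from 89.7 ± 42.8 to 24.5 ± 2.21 CPM. The call was kept in 6 of 11 other settings and lost with the replicate block, without control replicate 1 (-1.32) and without any one bufotalin library (-1.69 to -1.64), with adjusted p from 0.00171 to 0.125 over all settings.

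None of the other 10 was called, and none of them had an unadjusted p under 0.05, against 26% of the tested miRNAs. miR-152-3p was at 588, 822 and 406 CPM in control and at 367, 406 and 280 CPM in treated libraries, and the lowest control lay just below the highest treated library (log2 -0.59, SE 0.27, edgeR adjusted p 0.19). miR-148a-3p, with the same seed, was at 128217, 95302 and 227110 CPM in control and at 111907, 107270 and 176130 CPM in treated libraries, which overlapped widely (-0.11, SE 0.48). miR-22-3p had -0.03 (SE 0.30) and miR-320a-3p 0.05 (SE 0.26), and both changed sign in other settings. miR-200b-3p, reported for FTH1, was at 96.7, 105 and 37.4 CPM in control and at 109, 100.01 and 94.2 CPM in treated libraries (0.56, SE 0.33). Of those reported for HMOX1 or BACH1, miR-24-3p had 0.04 (SE 0.28), miR-155-5p 0.12 (SE 0.66) and miR-196a-5p -0.38 (SE 0.26). let-7d-5p had 0.47 (SE 0.30) and miR-122-5p, the main miRNA of hepatocytes, -0.98 (SE 0.72). For these 10 no difference was detectable at this depth and spread, which does not show that their levels were alike. miR-377-3p and miR-485-3p each had 1 count in 6 libraries.

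**Figure D5:**
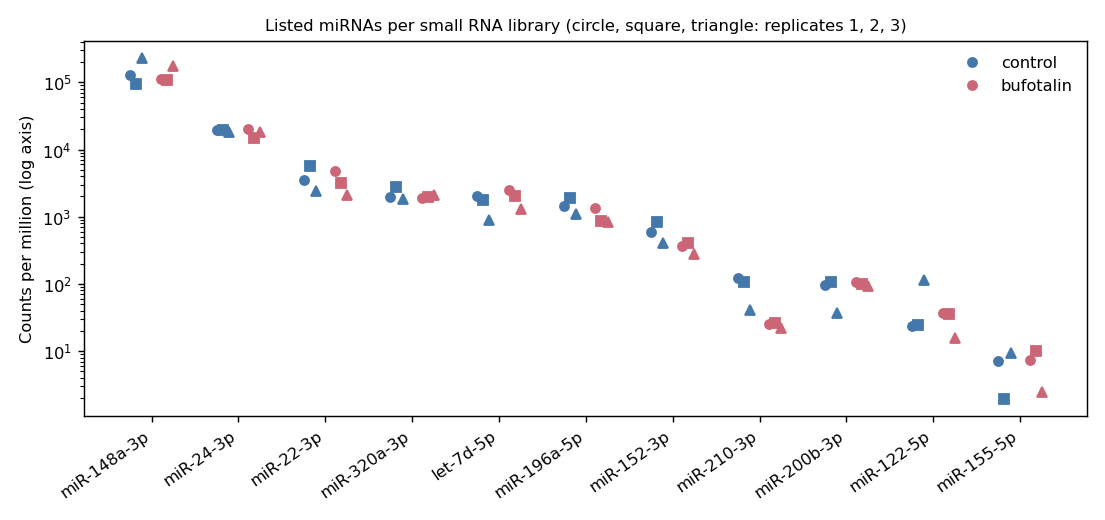
CPM (log axis) of the 11 tested miRNAs in each of the 3 control and 3 bufotalin small RNA libraries; points are libraries, with marker shapes for the replicate number. miR-210-3p is lower in all 3 treated libraries, at 22.1 to 26.4 CPM, and the groups of the other 10 overlap.

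Markers of other cell types moved beside these genes, and their part in the results was not tested. In a xenograft such cells would belong to the host, while the values here are for human genes on GRCh38. Expression by the tumour line and host reads placed on human genes cannot be told apart here. The values are therefore not a measure of how many such cells were present. Of 11 macrophage markers, cells that also express HMOX1, 3 were in the table, with a sum of 3.16 to 3.46 FPKM in control and 4.66 to 6.83 FPKM in treated libraries; CSF1R made up most of it, and MRC1 was listed at 0 in all controls. Of 9 erythroid markers HBB alone was listed. The 6 of 10 fibroblast markers in the table all fell, with a sum of 82.5 to 87.0 FPKM in control and 23.8 to 29.2 FPKM in treated libraries, with COL6A1, COL5A1 and COL1A1 at the highest levels. The 2 of 7 endothelial markers were EGFL7, which fell, and CDH5, which rose. The labelled cell type could not be checked from the 12 hepatocyte and liver tumour markers, of which only 1 was in the table. The summed FPKM of the table was 102677 to 121337 per library, and the sequencing depth behind it is unknown.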

How the data were processed

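Tumours labelled as Hep3B xenografts, control or bufotalin-treated, gave 3 total RNA and 3 small RNA libraries per group; groups and replicate numbers come from the sample titles. The authors deposited FPKM values per gene (4988 genes) and per lncRNA transcript, in both cases for features they selected as different, and read counts per mature miRNA with TPM values beside them; TPM was here the count divided by its column sum, scaled to 1e+06, and is called CPM below; log2 fold changes use TMM factors besides. Per the submitters' processing notes the tools were HISAT2 2.0.5, featureCounts 1.5.0-p3, fastp, DESeq2 1.20.0 and CASAVA 1.8, on GRCh38; for the tool behind each value, the selection rule and the strandedness, nothing is given in the sources used here. Extraction was by TRIzol and library preparation by a NEBNext Ultra kit, per the labels' protocols.

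mRNA values were fitted with limma 3.58.1 (trended, robust) on log2(FPKM + 1) where the mean reached 0.5 FPKM, lncRNA values on log2(FPKM + 0.1) for means of at least 0.1 FPKM, and miRNA counts with edgeR 4.0.16 (TMM, filterByExpr, robust quasi-likelihood), all two-sided, with Benjamini-Hochberg adjustment over the whole table and a threshold of 0.05. Log2 fold changes understate low genes. Small RNA libraries held 1869893 to 4197636 counts, so 3 counts are 0.715 to 1.60 CPM. The sources used here do not say whether replicate numbers pair the samples, and the main fits used no pairing. Same-numbered libraries' deviations from group means correlated at -0.02, 0.03 and -0.05 (mRNA) and 0.15, 0.03 and 0.38 (miRNA). With so few libraries these values cannot settle whether samples were paired. The fits were tested on simulated data. Of the table's genes, 4968 matched the gene reference.

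The 4 genes, the gene and miRNA lists and the tests were chosen with earlier results of these data known. For lists of up to 6 genes in the table every one was to be named, otherwise the 6 with the largest log2 fold change past the test. Also named were the 3 most like each of the 4 genes, all listed miRNAs tested and all lncRNA-table transcripts of list genes. TXNRD1, SLC7A11, OSGIN1, ABCC1, GPX1, GLRX3, GFER, NFE2L1, NQO2 and AHR were named after their values were seen. Some genes that the rule covers are not reported here. Alternatives were pseudocounts of 0.1 and 0.01, quantile or equal-median scaling, no filter, limma without trend, DESeq2 1.42.0, library totals, a replicate block and leaving out each library. R 4.3.3, Python 3.11.15, pandas 2.3.3 and matplotlib 3.10.9 were used.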

Additional observations from a re-analysis of the deposited data

How the results depend on the processing

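The direction of TFRC, FTH1, HMOX1 and NQO1 was the same in all 12 other settings. Their log2 fold changes ranged from 2.18 to 2.71, from 0.78 to 1.18, from 1.08 to 1.38 and from -1.08 to -0.56, and with each library left out from 2.38 to 2.67, 0.78 to 1.15, 1.08 to 1.2 and -0.83 to -0.67. Quantile normalization gave 2.18 for TFRC, 1.38 for HMOX1 and -1.08 for NQO1, equal medians gave 1.32 for HMOX1 and -0.56 for NQO1, and a pseudocount of 0.01 gave 1.26 for HMOX1. Equal medians moved the median log2 fold change of all tested genes from 0.13 to 0.31, quantile normalization to 0.05 and no FPKM minimum to -0.14. Of the genes in the lists, 23 to 30 were called higher and 34 to 37 lower, and 55 of 69 kept direction and call throughout. Those that changed sign were LCN2 (5.1e-05 under quantile normalization), GLRX3 (0.10 with equal medians, -0.195 to 0.0732 with each library left out) and GPX1 (-0.108 to 0.927 with each library left out). Other calls stood with values moved by over 1.5 times under quantile normalization: ACSL3 0.32 (from 0.59), MAFK 0.42 (0.72), MSRB2 -1.12 (-1.76), NFE2L2 0.40 (0.67), OPLAH -0.99 (-1.68), OSGIN1 0.71 (0.40), SLC3A2 0.59 (0.95), SLC7A11 1.06 (0.61), SQSTM1 0.30 (0.71) and VDAC2 -0.995 (-0.64). Low genes moved with the pseudocount, as ALDH3A1 did from -2.94 to -5.58 at 0.01. All 4 noncoding transcripts were called in all 9 other settings. The number of miRNAs called was 27, against 59 with DESeq2 and 6 to 40 with each library left out; of the listed miRNAs it was 1, and 0 to 1 with each library left out. miRNAs not called changed sign: miR-22-3p (0.0197 with DESeq2 and with its size factors, -0.312 to 0.164 with each library left out), miR-320a-3p (-0.14 with library totals, -0.0903 to 0.13), miR-24-3p (-0.0988 with library totals, -0.156 to 0.167), miR-155-5p (-0.42 to 0.604) and miR-122-5p (-1.48 to 0.511). miR-148a-3p ranged from -0.519 to 0.512. The cause of these changes was not tested.

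With the replicate number as a block, 3 miRNAs were called, 0 of them listed, and miR-148a-3p had 0.019; TFRC, FTH1, HMOX1 and NQO1 kept their log2 fold changes and the list genes their calls, with 28 higher and 37 lower. In the sources used here samples share only a number, and not every library correlated best with its own number.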

Other observations

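The deposited mRNA table held small rises but hardly any small falls. Among the 2145 genes whose mean reached 10 FPKM, 604 had a log2 fold change between 0 and 0.5, and 10 had one between -0.5 and 0. The median rise was 0.56 over 1458 genes and the median fall -1.02 over 687 genes. NQO1, at -0.73, was therefore a small fall for this table, while FTH1, at 1.01, lay well above the median rise. Genes of the iron and redox lists with a small fall would rarely be in such a table, so the higher and lower counts of a list are counts within this selection.

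Control replicate 3 stood apart for more genes than the other controls. It was at least 1.5-fold below both other controls for 136 of 4273 tested genes, among them FTH1, against 61 for control replicate 1 and 78 for control replicate 2. It was at least 1.5-fold above both for 92 genes, against 44 each. In the redox lists, GLRX2, a mitochondrial glutaredoxin gene, was at 12.1, 13.6 and 3.13 FPKM in control replicates 1, 2 and 3, and TXNRD1 at 103, 109 and 198 FPKM. Among treated libraries, GPX1, a glutathione peroxidase gene with known pseudogenes, was at 214 FPKM in replicate 2 and at 69.8 and 50.3 FPKM in replicates 1 and 3.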
